A study of Homo sapiens with 2 samples.

Results

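The genes described here are 38 inflammatory cytokines, chemokines and effectors of NF-κB, the transcription factor that switches on much of the inflammatory programme, together with receptors for these factors. Every probe set that the platform annotation gave to a member and to no other gene was taken, which gave 71 probe sets for 36 of the 38 members, out of 54675 probe sets and 19775 genes on the array. No probe set of its own was found for CSF2 or BIRC3, which were not analysed here, and 4 further probe sets that name SOD2 together with SOD2-OT1 were left out.

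CL1-0 is an established human lung adenocarcinoma line. The study placed total RNA on 2 Affymetrix arrays, 1 of cells given an antibody to FSTL1, a secreted glycoprotein, for 6 h and 1 of cells given it for 0 h. Both arrays share the line, and both labels name the antibody, with times of 6 h and 0 h. The labels also speak of puromycin selection and stable transduction without naming what was transduced. Cells kept for 6 h without the antibody were not analysed here, so antibody and time in culture cannot be told apart, and with 1 array per time no difference has a replicate check or a test.

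In resting cells NF-κB subunits are held in the cytoplasm by inhibitor proteins. TNF, interleukin-1 and microbial products act through receptor adaptors and a kinase complex to destroy the inhibitors, after which the subunits bind κB sites in the promoters of chemokine, cytokine and survival genes. Lung epithelial cells and many lung tumours use this pathway to call neutrophils and monocytes, and cytokines of the IL-6 family signal beside it through the shared receptor chain gp130.

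A value was taken as above array background when it exceeded 45.4, the 50th percentile of the pooled intensities of both arrays. This floor is assumed, since detection calls were not used here. As a stricter level, the 95th percentile of 135 probe sets of olfactory receptor genes, which are chiefly used in the nose, was 72.1. For each gene the probe set brightest on average stands for the gene, values under the floor were set to it, and each difference is log2 of 6 h minus log2 of 0 h.

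The secreted factors were mostly at or below the floor, the receptors mostly above it, and no member above the floor differed by 1.5-fold. On at least 1 array 16 of 36 members were above the floor (44.4%), against 64.1% of all genes, and 15 of them were above it on both arrays. This count rests on the assumed floor, and it was 11 without probe sets ending in _x_at or _s_at. With the floor at the 40th percentile 22 of 36 members were above it, so that more members lay above than below. At that lower floor 14484 of 19775 genes were above it. Over probe sets, with the floor of 45.4, the share was 35.2% for the members and 56.6% for all probe sets of 1 gene. Above the stricter level on at least 1 array were 10 members, namely CXCL16, CSF1, SOD2, BIRC2, TNFAIP8, CD83, TNFRSF10B, TNFRSF12A, IL6ST and LIFR. The other 6, IL1B, IL11, LIF, CSF3, ICAM1 and TNFRSF1A, reached values between the floor and the stricter level. Of 102 olfactory receptor genes 15 (14.7%) also passed the floor.

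At least 1.5-fold higher at 6 h were 0 of the 16 members, where 0.75% of 12669 genes above the floor were, and at least 1.5-fold lower were 0, where 0.182% were. Higher by any amount were 8 and lower were 8, against 54.3% and 45.7% of all genes. Their median log2 difference was -0.01 and that of all genes 0.02. Members ranged between -0.23 and 0.44, and 6 of the 16 differed by more than 0.16, the SD between probe sets of the same gene pooled over 6122 genes. Probe sets of a gene are not replicates, so this SD describes the measurement and not the cells. Over all genes the 25th and 75th percentiles of the difference were -0.09 and 0.14, and the SD was 0.19. The share of all genes past 0.16 was not counted here, so the 6 members are not set apart from other genes.

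**Figure D1:**
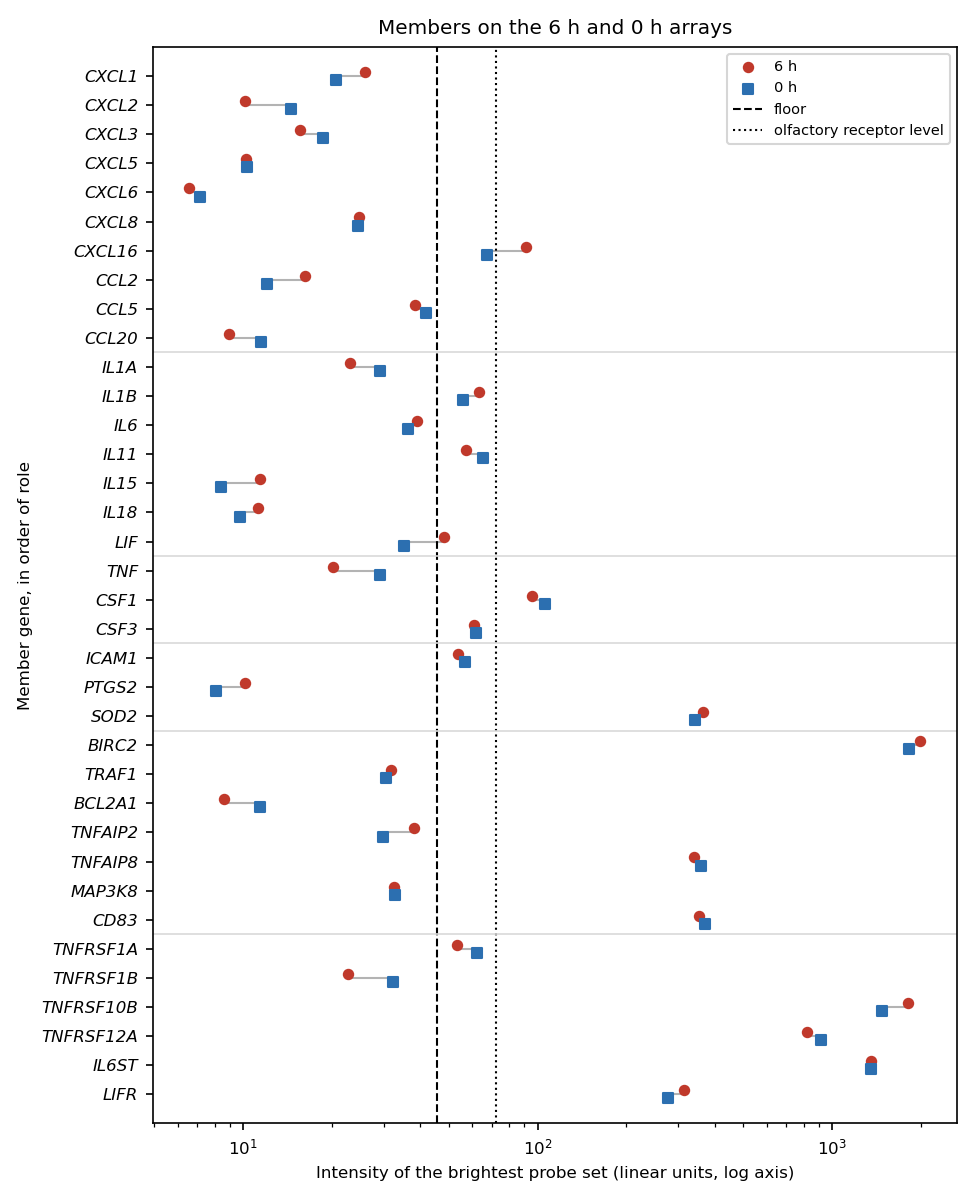
Intensity on a log axis (linear units) of the brightest probe set of each of 36 members, with 6 h as red circles and 0 h as blue squares, the floor of 45.4 dashed and the olfactory receptor level of 72.1 dotted. Grey lines separate the roles, and 9 of the 10 chemokines lie left of the floor on both arrays.

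Of the chemokine genes 1 of 10 was above the floor. Promoters of 7 of the others are shown because they hold letters of the site that NF-κB is known to bind, and those of CCL2, CCL5 and CXCL16 were not searched here. CXCL8, CXCL6, CXCL1, CXCL5, CXCL3 and CXCL2 lie in this order in 1 cluster on chromosome 4. The κB site was searched on both strands in the 250 bases before the start of each of the 28 members that the RefSeq promoter table holds, in 2 forms, the degenerate κB consensus and the core GGAATTTCC, which overlaps the consensus in several promoters. Stretches of 60 bases are printed 5′ to 3′ in the direction of the gene, from the RefSeq promoter table with build GRCh38.p14, and capitals mark the κB matches.
CXCL1 (chr4:73869289-73869348, + strand): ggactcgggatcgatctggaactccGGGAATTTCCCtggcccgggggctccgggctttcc
CXCL2 (chr4:74099239-74099298, - strand): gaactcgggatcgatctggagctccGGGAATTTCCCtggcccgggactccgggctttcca
CXCL3 (chr4:74038734-74038793, - strand): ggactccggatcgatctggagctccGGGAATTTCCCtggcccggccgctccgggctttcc
CXCL5 (chr4:73998734-73998793, - strand): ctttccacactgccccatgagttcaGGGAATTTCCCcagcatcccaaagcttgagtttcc
CXCL6 (chr4:73836563-73836622, + strand): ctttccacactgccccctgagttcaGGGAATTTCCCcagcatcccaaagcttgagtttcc
CXCL8 (chr4:73740453-73740512, + strand): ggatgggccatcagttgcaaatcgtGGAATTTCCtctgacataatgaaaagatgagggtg
CCL20 (chr2:227813738-227813797, + strand): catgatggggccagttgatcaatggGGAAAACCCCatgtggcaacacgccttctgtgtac
The first 5 of these carry the same run of 11 bases, GGGAATTTCCC, starting 79, 78, 79, 91 and 90 bases before the start of CXCL1, CXCL2, CXCL3, CXCL5 and CXCL6. CXCL8 holds the core alone, and CCL20 holds the consensus without the core.

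None of these 7 chemokines passed the floor on either array. CXCL1, CXCL2, CXCL3, CXCL5, CXCL6 and CXCL8 encode ligands that draw neutrophils through the receptor CXCR2. CXCL1 had an intensity of 26.0 at 6 h and 20.7 at 0 h, and CXCL3 had 15.6 at 6 h and 18.7 at 0 h. CXCL8, interleukin-8, had 24.8 and 19.8 on its 2 probe sets at 6 h, against 24.5 and 18.3 at 0 h. The values of these 3 genes stayed well under 45.4 on both arrays, so their ratios carry no direction. The 3 probe sets of CXCL2 lay at 7.04 to 10.5 at 6 h and 8.31 to 14.6 at 0 h, and those of CXCL5 at 5.90 to 10.2 at 6 h and 5.31 to 10.3 at 0 h. CXCL6 had 6.56 at 6 h and 7.14 at 0 h, and CCL20, which attracts CCR6-bearing lymphocytes and dendritic cells, had 8.95 at 6 h and 11.5 at 0 h.

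The remaining chemokines were CCL2, CCL5 and CXCL16. CCL2, a monocyte attractant, had 16.2 at 6 h and 12.1 at 0 h, below the floor. CCL5, a T cell attractant, reached 38.4 at 6 h and 41.9 at 0 h on the brightest of 3 probe sets, also below it. CXCL16 was the exception. It encodes a chemokine made as a transmembrane protein, the ligand of CXCR6, and had an intensity of 91.1 at 6 h and 67.1 at 0 h on its only probe set. Its log2 difference of 0.44 was the highest of the members, and 2.32% of all genes above the floor were at least as high. The 0 h value lay under the olfactory receptor level, and CXCL16 has no other probe set to set beside it.

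Interleukins were at or below the edge of detection. IL1B, the secreted interleukin-1β, had 63.2 at 6 h and 55.6 at 0 h, a log2 difference of 0.18, while its other probe set lay below the floor at 34.3 at 6 h and 31.6 at 0 h. IL11, a gp130 cytokine, had 57.0 at 6 h and 65.4 at 0 h, a difference of -0.20, and its other probe set lay below the floor at 26.6 at 6 h and 28.6 at 0 h. Both genes thus rest on 1 dim probe set. LIF, a gp130 cytokine named for its action on leukaemia cells, was the 1 member above the floor at 6 h alone, with 48.0 at 6 h and 35.1 at 0 h. Against the floor it was at least 1.06-fold higher at 6 h, a log2 difference of 0.08.

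The remaining interleukins were below the floor on both arrays. IL6, the best known gp130 cytokine, came nearest with 39.1 at 6 h and 36.3 at 0 h. IL1A, the cell-associated interleukin-1α, reached 23.1 at 6 h and 29.1 at 0 h. IL15, a growth factor of natural killer cells, reached 11.5 at 6 h and 9.33 at 0 h over its 2 probe sets, and IL18, which induces interferon-γ in lymphocytes, had 11.2 at 6 h and 9.75 at 0 h. These 4 genes have no direction here.

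TNF itself, the prototype activator of NF-κB, had 20.2 at 6 h and 29.2 at 0 h and was not detected above the floor. CSF1, the growth factor of macrophages, was the clearest of the secreted colony-stimulating factors. Its brightest probe set had 95.4 at 6 h and 106.0 at 0 h, a log2 difference of -0.15. The other set of CSF1 above the floor had 75.3 at 6 h and 73.9 at 0 h, a difference of 0.03, so its sets had opposite signs. CSF3, the growth factor of neutrophils, had 60.7 at 6 h and 61.9 at 0 h, a difference of -0.03.

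Among effectors of adhesion, prostaglandin synthesis and oxidant defence, SOD2 was detected clearly. It encodes the mitochondrial superoxide dismutase, and its 1 unshared probe set had 363.1 at 6 h and 343.1 at 0 h, a log2 difference of 0.08. ICAM1, a ligand of leukocyte integrins, had 53.8 at 6 h and 56.7 at 0 h on its brightest probe set, a difference of -0.07. A second set of ICAM1 had 44.4 at 6 h, below the floor, and 50.4 at 0 h, and the third set was below it on both arrays. PTGS2, the inducible cyclooxygenase, reached 10.1 at 6 h and 8.31 at 0 h over its 2 probe sets, far below the floor.

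Survival and feedback effectors split into detected and undetected genes. BIRC2, a ubiquitin ligase of the TNF receptor complex that restrains cell death, had 1995 at 6 h and 1823 at 0 h, a log2 difference of 0.13. TNFAIP8, a TNF-induced gene described as anti-apoptotic, had 341.0 at 6 h and 359.0 at 0 h on its brightest set, a difference of -0.07. Another set of TNFAIP8 had 254.3 at 6 h and 222.6 at 0 h, a difference of 0.19, and the third was below the floor. CD83, best known as a marker of mature dendritic cells, had 353.0 at 6 h and 368.9 at 0 h, a difference of -0.06. All 3 genes were well above the stricter level on both arrays and differed by less than 1.5-fold.

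Below the floor in this class were TRAF1, BCL2A1, TNFAIP2 and MAP3K8. The receptor adaptor TRAF1 reached 31.7 at 6 h and 30.6 at 0 h, and BCL2A1, a BCL2-like survival protein, had 8.61 at 6 h and 11.4 at 0 h. TNFAIP2, a TNF-induced gene, reached 37.9 at 6 h and 29.9 at 0 h. MAP3K8, a kinase that links NF-κB signalling to ERK, reached 32.5 at 6 h and 32.9 at 0 h.

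Receptors were the class detected most often, with 5 of 6 above the floor, against 1 of 10 chemokines and 3 of 7 interleukins with LIF. TNF and the colony-stimulating factors had 2 of 3, the adhesion, prostaglandin and antioxidant effectors 2 of 3, and the survival and feedback effectors 3 of 7. Of all genes 64.1% were above the floor, and each class is small. TNFRSF10B, the death receptor DR5 for TRAIL, had 1805 at 6 h and 1473 at 0 h on its brightest probe set, a log2 difference of 0.29. Its 3 sets above the floor differed by 0.15 to 0.29, all higher at 6 h, and 7.89% of all genes were at least as high as the brightest. TNFRSF12A, the TWEAK receptor Fn14, had 821.7 at 6 h and 914.2 at 0 h, a difference of -0.15. TNFRSF1A, the main TNF receptor of most cells, had 53.4 at 6 h and 62.5 at 0 h, a difference of -0.23, the lowest of the members, and 7.46% of all genes were at least as low. TNFRSF1B, the other TNF receptor, was below the floor with 22.8 at 6 h and 32.3 at 0 h.

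The gp130 receptor chains were detected on several probe sets. IL6ST, gp130 itself, had an intensity of 1351 on each array on its brightest set, a difference of 0.0004. Its other set above the floor had 147.1 at 6 h and 131.7 at 0 h, a difference of 0.16, and 5 of its 7 sets were below the floor. LIFR, which pairs with gp130 to bind LIF, had 313.4 at 6 h and 278.2 at 0 h on its brightest set, a difference of 0.17. A dimmer set of LIFR had 147.6 at 6 h and 102.3 at 0 h, a difference of 0.53, the highest of all members' sets above the floor. Another had 139.3 at 6 h and 135.8 at 0 h, a difference of 0.04, and a set near the floor was at -0.10. The 4 sets of LIFR above the floor therefore disagreed in size and in sign, and of 6 members with several such sets 3 had all of them on the same side of 0.

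**Figure D2:**
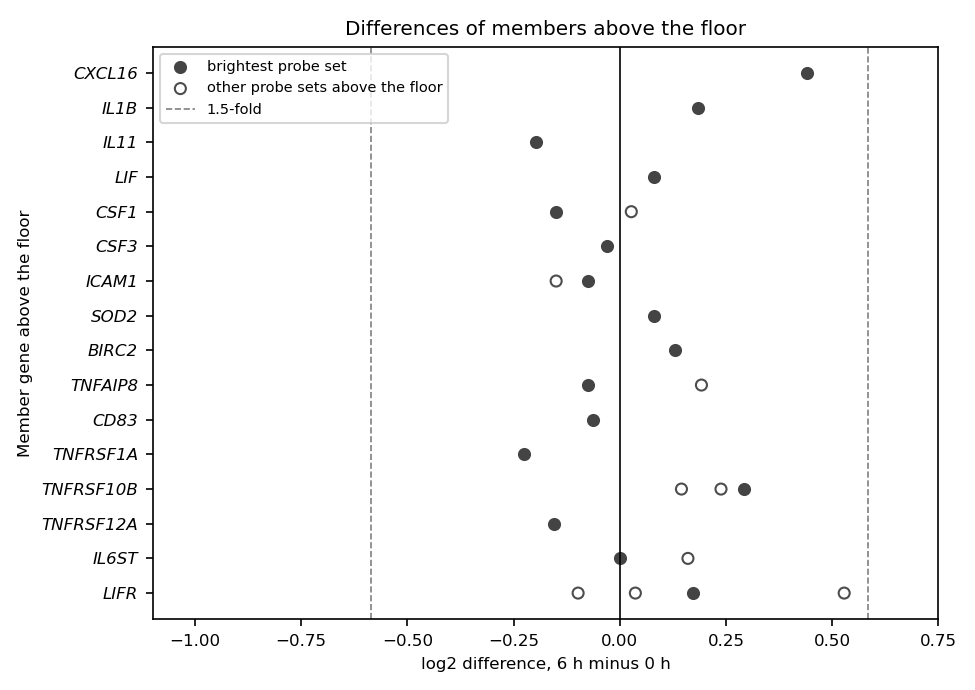
The log2 difference, 6 h minus 0 h, of each probe set above the floor on at least 1 array, for 16 members, with the brightest set filled and other sets open. Every point lies inside the dashed 1.5-fold lines, with LIFR at 0.53 and CXCL16 at 0.44 furthest to the right.

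Promoters of other members with values are shown for comparison. Of the 28 of 38 members searched, 12 held at least 1 form of κB site, against 9.78% of 27303 genes. Where a gene has several starts, the one furthest upstream was used. The κB consensus was in 10 of the 28 members and 9.59% of all genes, and the core GGAATTTCC in 8 members and 0.44% of all genes. These matches were in 9 of 16 members below the floor and in 2 of 10 above it, ICAM1 and IL6ST, and the remaining match was in BIRC3. Those below the floor include CXCL1, CXCL2, CXCL3, CXCL5, CXCL6 and CXCL8 of the chromosome 4 cluster. Of that cluster 5 share the same run, so the matches are not independent. A relation between matches and level was not tested. A match is a description of letters and not of binding. The members were chosen as known inflammatory and NF-κB genes, so their share of κB matches is no finding. The stretches around the match of IL6, MAP3K8 and ICAM1 come first. The 250 bases before the start follow for IL11, SOD2 and BIRC2, which had the brightest probe set of their role, and for IL6ST, the next brightest of the receptors after TNFRSF10B. Capitals again mark κB matches.
IL6 (chr7:22727102-22727161, + strand): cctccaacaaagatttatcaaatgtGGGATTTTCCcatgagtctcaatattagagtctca
MAP3K8 (chr10:30433961-30434020, + strand): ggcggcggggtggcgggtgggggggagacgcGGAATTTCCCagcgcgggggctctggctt
ICAM1 (chr19:10270909-10270968, + strand): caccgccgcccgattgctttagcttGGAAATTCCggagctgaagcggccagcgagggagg
IL11 (chr19:55370464-55370713, - strand): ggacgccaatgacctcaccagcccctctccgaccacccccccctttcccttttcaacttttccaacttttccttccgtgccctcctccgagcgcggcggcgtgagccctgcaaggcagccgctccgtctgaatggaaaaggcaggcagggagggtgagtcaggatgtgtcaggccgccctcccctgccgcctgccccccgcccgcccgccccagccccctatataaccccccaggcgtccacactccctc
SOD2 (chr6:159762282-159762531, - strand): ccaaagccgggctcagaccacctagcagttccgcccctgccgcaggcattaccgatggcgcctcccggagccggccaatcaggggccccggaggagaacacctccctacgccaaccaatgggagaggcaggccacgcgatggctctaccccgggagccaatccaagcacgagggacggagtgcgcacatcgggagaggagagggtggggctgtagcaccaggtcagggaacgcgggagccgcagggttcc
BIRC2 (chr11:102346964-102347213, + strand): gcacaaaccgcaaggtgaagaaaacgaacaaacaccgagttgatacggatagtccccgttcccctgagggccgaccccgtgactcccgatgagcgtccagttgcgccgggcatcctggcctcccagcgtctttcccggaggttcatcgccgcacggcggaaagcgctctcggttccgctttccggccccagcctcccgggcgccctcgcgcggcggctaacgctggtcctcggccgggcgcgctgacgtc
IL6ST (chr5:55994964-55995213, - strand): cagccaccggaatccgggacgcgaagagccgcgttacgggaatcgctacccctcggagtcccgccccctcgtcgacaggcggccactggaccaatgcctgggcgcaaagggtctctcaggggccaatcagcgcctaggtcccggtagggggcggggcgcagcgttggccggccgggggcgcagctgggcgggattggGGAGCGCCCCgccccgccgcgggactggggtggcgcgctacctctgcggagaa
The AP-1 motif TGANTCA, searched on both strands, was in 3 members, CXCL8, IL1A and IL11, and in 6.57% of all genes. The letters TATAAA, on either strand, were in 8 members and 11.2% of all genes.

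Genes of the machinery upstream were largely above the floor. Of 33 genes of TNF and IL-1 receptor signalling 30 had a probe set and 29 were above the floor, against 64.1% of all genes. Of these 29, 18 were higher, 11 lower and 0 past 1.5-fold in either direction. Among all genes above the floor 54.3% were higher and 45.7% lower. MYD88, the adaptor of IL-1 and Toll-like receptors, had 84.3 at 6 h and 125.3 at 0 h, a log2 difference of -0.57. TAB2, which activates the kinase TAK1, had 1314 at 6 h and 995.3 at 0 h, a difference of 0.40. IRAK2, a kinase of the MYD88 complex, had 705.1 at 6 h and 579.6 at 0 h, and TNIP1, a brake on the pathway, had 725.4 at 6 h and 610.5 at 0 h, with differences of 0.25 and 0.54 on its 2 sets above the floor.

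NF-κB subunits and inhibitors had a median difference of 0.12 over 9 genes above the floor, against 0.02 for all genes. Of the 9, 7 were higher and 2 lower, against 54.3% and 45.7% of all genes. NFKBIA, the inhibitor IκBα and itself a rapid NF-κB target, was the 1 gene past 1.5-fold on its brightest probe set in the 5 pathway lists, with 1251 at 6 h and 778.0 at 0 h, a difference of 0.68. The subunit gene REL differed by 0.52 on its brightest set and by 0.48 to 0.63 over 4 sets. The 0.48 is a lower bound, from a set with 63.4 at 6 h and 35.6, below the floor, at 0 h. NFKB2 and RELB were near the floor, with differences of 0.26 and 0.22. NFKB1 and RELA differed by 0.12 and 0.11 on their brightest sets, and NFKBIE by 0.01. The 2 lower were the inhibitor genes NFKBIZ at -0.15 and NFKBIB at -0.14. TNFAIP3, of the TNF and IL-1 receptor list, was at -0.03. The difference of NFKBIA rests on 1 probe set above the floor. The 7 chemokines whose promoters are printed first were below the floor on both arrays, and a link with NFKBIA was not tested.

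In gp130 signalling 12 of 14 genes with a probe set were above the floor, against 64.1% of all genes. Of the 12, 6 were higher and 6 lower, against 54.3% and 45.7% of all genes above the floor. STAT3, the main transcription factor downstream of gp130, had 800.7 at 6 h and 681.4 at 0 h, a difference of 0.23. CNTFR, IL6R and CTF1 were dim and differed by -0.40, -0.34 and 0.30. Chemokine and interleukin receptors were mostly undetected, with 4 of 15 above the floor, against 64.1% of all genes. These were IL15RA at -0.22, CXCR1 at 0.13, CXCR3 at -0.09 and CSF3R at -0.03, all dim. Proteins that bind AU-rich elements control the decay of many cytokine transcripts. Of their genes 8 of 8 with a probe set were above the floor, against 64.1% of all genes. On the brightest set 7 were higher, 1 lower and 0 past 1.5-fold. Of all genes above the floor 54.3% were higher and 45.7% lower. At least 1.5-fold higher were 0.75% of them, and at least 1.5-fold lower 0.182%. The median difference of the 8 genes was 0.07, and that of all genes 0.02. A dimmer set of ELAVL1 was past 1.5-fold, with 123.8 at 6 h and 72.9 at 0 h, a difference of 0.76. The brightest set of ELAVL1 differed by 0.01. On the brightest sets ZFP36L1 differed by 0.31, ZFP36 by 0.15, ZFP36L2 by 0.12 and HNRNPD by 0.09. Another set of ZFP36L1 was at 0.004, and the 6 sets of HNRNPD above the floor ran from -0.12 to 0.09.

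**Figure D3:**
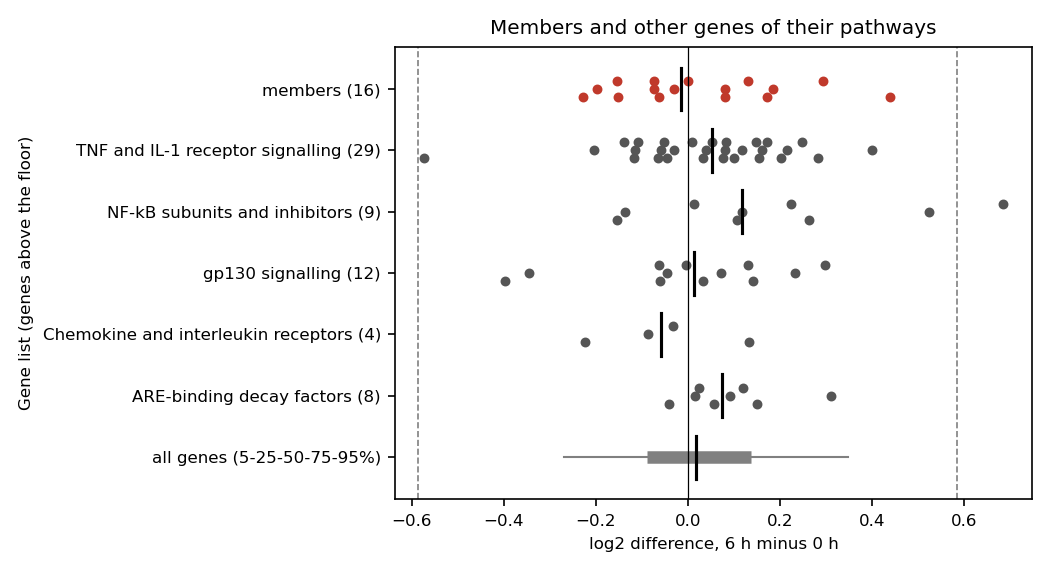
Log2 differences, 6 h minus 0 h, of members (red) and of 5 lists of pathway genes (grey), 1 point per gene above the floor, with black bars at the medians and dashed lines at 1.5-fold. The bottom row gives the 5th to 95th percentiles of all genes (-0.27 to 0.35), and NFKBIA at 0.68 is the single point past 1.5-fold.

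Over the whole arrays 49.8% of probe sets were above the floor at 6 h and 50.2% at 0 h. The floor is the 50th percentile of both arrays pooled, so the mean of these shares is fixed by definition. Median intensities were 44.9 at 6 h and 45.8 at 0 h. FSTL1, the target of the antibody, had 52.8 at 6 h and 58.3 at 0 h. Of leukocyte markers 0 of 8 with a probe set were above the floor, including PTPRC and CD14. Of epithelial markers KRT18 (120.9 at 6 h and 148.2 at 0 h) and KRT8 (52.4 at 6 h and 48.1 at 0 h) passed it, while EPCAM, CDH1 and KRT19 did not. The labels name an alveolar type II cell. Of that type's markers 5 of 7 with a probe set passed the floor, against 64.1% of all genes. These were ABCA3 (207.9 at 6 h and 173.4 at 0 h), SFTPB, SFTPC, NKX2-1 and NAPSA, while SFTPD and LAMP3 did not pass. SFTPB, SFTPC and NKX2-1 had probe sets of opposite sign. NKX2-1 and NAPSA stayed below the stricter level on every set, so these markers do not settle the cell type. Of 5 fibroblast markers 2 passed the floor, COL1A1 (-0.36 and 0.94 on its 2 sets above the floor) and DCN (-0.15). Of 5 endothelial markers 1 did, PECAM1 (-0.43). These markers were dim or disagreed between sets. The fibroblast markers COL3A1, PDGFRB and LUM and the endothelial markers CDH5, VWF, KDR and TEK were below the floor on both arrays.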

How the data were processed

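Per the labels' protocols, biotin-labelled cRNA from total RNA was hybridised to 1 Affymetrix array per time. The authors deposited 1 linear intensity per probe set and array. MAS5 is named per the submitters' processing notes, without version or parameters. MAS5 subtracts background, so dim values are noisy, and scaling between the arrays is not stated.

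Probe sets were named through the platform annotation (41097 with 1 gene, 1801 with several), and symbols were updated by Entrez identifier for 41043 of them through the RefSeq GRCh38.p14 table. Values under the floor were set to it, and log2 differences were taken with Python 3.11.15, numpy 2.4.6 and pandas 2.3.3. All members were named. From each other list the up to 4 genes with the largest absolute difference were named, and FSTL1. Other marker and pathway genes were named after their values were seen, as were the κB stretches. Members, lists and motifs were chosen with earlier results of these data known. The steps were tested on simulated data with differences planted only in genes well above the floor. That check does not cover the dim members. With 1 array per time no test was made, and the number of arrays limits the precision.

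Alternatives were floors at the 40th and 60th percentile and at the olfactory receptor level, no floor with log2(value + 16), centring, quantile normalization, a loess curve (span 0.3), the median over all sets of a gene, and leaving out sets ending in _x_at or _s_at.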

Additional observations from a re-analysis of the deposited data

How the results depend on the processing

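The count of members above the floor, 16, depends on the floor and on the probe sets taken. Without sets ending in _x_at or _s_at the count was 11, and IL11, ICAM1, TNFAIP8, TNFRSF1A and TNFRSF12A dropped out. It was 22 with the floor at the 40th percentile, where more of the 36 members with a probe set lie above than below, 10 with the floor at the 60th percentile, 10 with the olfactory receptor level as the floor, and 36 with no floor and no filter, where every member with a probe set counts. Members at least 1.5-fold higher or lower at 6 h numbered 0 under each of the 9 alternatives. The highest member in any of them was LIF at 0.45 with the floor at the 40th percentile (0.08 in the report and 0.32 with no floor), and the lowest was TNF at -0.32 with no floor, where it lies below the floor otherwise. Of the 16 members above the floor 14 kept 1 sign in every alternative that measured them. TNFAIP8 lay between -0.14 and 0.06 and IL6ST between -0.05 and 0.08. The median of all genes moved by less than 0.1 under every scaling. No paired analysis was possible because each time has 1 array.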
